A study of Mus musculus with 6 samples.

Results

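The matrix proteases examined here are the matrix metalloproteinases (Mmp genes), the ADAM proteases with thrombospondin repeats (Adamts), the ADAMTS-like proteins (Adamtsl) and the membrane-anchored ADAM proteins (Adam), together with the tissue inhibitors of metalloproteinases (Timp). They were chosen by gene symbol alone, and 72 of the 27546 genes in the deposited table carried such a symbol: 21 Mmp, 4 Timp, 19 Adamts, 5 Adamtsl and 23 Adam genes. The libraries came from the distal colon of 3 Gm31629-/- mice, which lack the long noncoding RNA Gm31629 in every cell, and of 3 WT littermates on the C57BL/6 background. All 6 mice were 8 weeks old and all drank 3% DSS (dextran sulfate sodium, which injures the colonic epithelium) over 7 days before they were killed on day 8. There were no untreated mice, so each difference below is between genotypes in injured colon. The study's methods speak of RNA pooled from 3 mice of each genotype, whereas the table has a column for each mouse, and the columns were taken here as separate mice. Where they are not, p-values measure only the spread between these libraries.

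MMPs are zinc-dependent enzymes that are secreted or held at the cell surface as inactive proenzymes and cut collagens, gelatin, proteoglycans and many non-matrix proteins once activated. TIMPs bind the active site of MMPs and, with different preferences, of several ADAM and ADAMTS enzymes. ADAMTS enzymes process procollagens and cut large proteoglycans such as versican and aggrecan, ADAMTS-like proteins resemble them but lack the protease domain, and ADAM proteins release growth factors, cytokines and receptors from cell membranes, although several of them have no protease activity. In the inflamed gut these genes are known from fibroblasts, macrophages, neutrophils and the epithelium at wound edges.

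The deposited unit was FPKM, fragments divided by gene length and library depth, which allows levels of different genes to be compared per length. The libraries held an estimated 18006000 to 18795100 fragments, and a value of 0 allows up to 3 fragments by counting error alone. Transcripts of 4 Y-linked genes summed to 29.2 FPKM in Gm31629-/- mouse 1 and were listed at 0 in the other 5 libraries, and Xist was 0.00606 FPKM in that mouse against 8.35 to 13.8 FPKM in the others, although the study's methods name male mice. Results that depended on that mouse are given with and without it. Gm31629 itself was not analysed here, so the genotype of each library rests on its label. Genes were compared with limma on log2(FPKM + 1), and a gene was called higher or lower at a Benjamini-Hochberg adjusted p under 0.05 over all genes tested together with a log2 fold change above 1 or below -1. This scale understates the change of genes with low FPKM. With groups of 3, an exact permutation test of a single gene can reach no p under 0.1.

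Most members with a measurable level were more abundant in Gm31629-/- mice, the inhibitors as well as the proteases. Of the 72 members, 40 passed the filter of a mean of at least 0.5 FPKM over the 6 mice, 28 of these were called higher and 1, the matrilysin gene Mmp7, was called lower. Over all 14657 genes tested, 18.4% were called higher and 4.64% lower. These counts cannot be read as a rate for the families, since 18 of the 40 members reached the filter only through their level in Gm31629-/- mice, where the WT mean was under 0.5 FPKM, and Mmp7 reached it only through WT mice. Of the 22 tested members with a WT mean of at least 0.5 FPKM, 11 were called higher, against 11.4% of the 12450 genes tested with such a WT mean. Among all 72 members irrespective of the filter, the 3 Gm31629-/- mice lay above the 3 WT mice for 49 members and below them for 6, where 31.0% and 12.6% of all listed genes did so. The median log2 fold change of all genes tested was 0.15. Rescaling each library by its median ratio moved the median of all genes to -0.06 and the shares of all genes called to 15.4% higher and 8.38% lower, and left 27 members called higher and 2 called lower. Without Gm31629-/- mouse 1, 31 members were called higher and 1 lower, against 18.5% and 5.23% of all genes.

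Summed over its members, each family was higher in every Gm31629-/- mouse except for the Mmp family, where mouse 1 reached the WT range. The Mmp sum was 187, 822 and 573 FPKM in Gm31629-/- mice 1 to 3 and 102, 189.7 and 121 FPKM in WT mice 1 to 3. The Timp sum was 77.0, 144 and 80.8 FPKM against 3.71, 8.07 and 4.90 FPKM. The Mmp sum divided by the Timp sum was 25.2 ± 2.005 (SD, n = 3) in WT mice and 5.08 ± 2.40 (SD, n = 3) in Gm31629-/- mice, with no overlap between the groups. A single membrane-type gene, Mmp15, made up 48.0% to 54.5% of the Mmp sum in WT mice and 55.6%, 9.81% and 19.9% of it in Gm31629-/- mice 1 to 3. Without Mmp15 the ratio was 12.1 ± 1.92 in WT and 3.97 ± 2.52 in Gm31629-/- libraries (SD, n = 3 each). The Adamts sum went from 3.97 ± 0.424 to 60.7 ± 32.6 FPKM, the Adamtsl sum from 5.87 ± 2.05 to 18.9 ± 6.64 FPKM and the Adam sum from 48.9 ± 6.99 to 95.5 ± 17.7 FPKM (SD, n = 3 each). These sums are a description and were not tested.

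**Figure D1:**
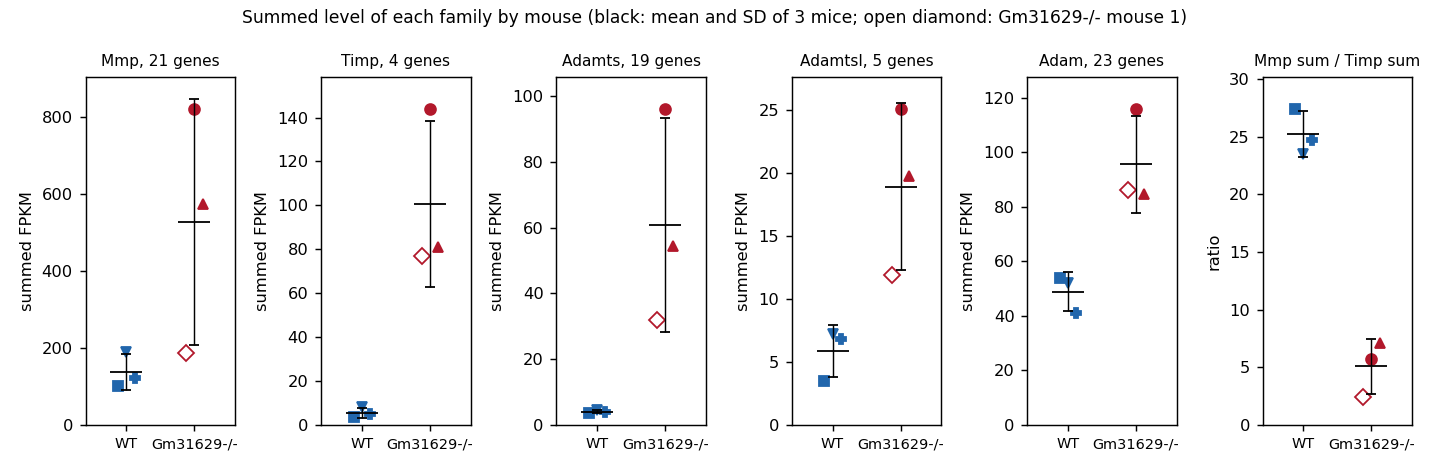
Summed FPKM of each family (y axis, linear from 0) in each mouse, with WT mice in blue, Gm31629-/- mice in red and the mean and SD of 3 mice in black, and on the right the Mmp sum divided by the Timp sum. The Timp sums of 77.0 to 144 FPKM in Gm31629-/- mice lie far above the WT sums of 3.71 to 8.07 FPKM, whereas the Mmp sum of Gm31629-/- mouse 1 (open diamond, 187 FPKM) lies within the WT range and the mean ratio is 25.2 in WT mice and 5.08 in Gm31629-/- mice.

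Markers of several cell types differed between the groups at the same time. For reference, 18.4% of all genes tested were called higher and 4.64% lower. The summed level of 8 fibroblast markers was 210.2 to 613 FPKM in Gm31629-/- mice and 19.5 to 40.9 FPKM in WT mice, with 8 of 8 called higher. Smooth muscle markers summed to 1105 to 1679 FPKM against 6.55 to 23.8 FPKM, with 7 of 8 called higher, and macrophage markers to 326 to 666 FPKM against 31.5 to 39.0 FPKM, with 8 of 8 called higher. Neutrophil markers summed to 507 to 1029 FPKM against 70.4 to 128 FPKM, with 6 of the 6 tested called higher and Mpo and Elane listed at 0 in all WT mice. Endothelial markers summed to 37.1 to 80.4 FPKM against 2.21 to 5.55 FPKM, with 6 of 6 called higher. Enteric neuron and glia markers summed to 45.2 to 154 FPKM against 2.67 to 4.69 FPKM, with 9 of 10 called higher and Elavl4 listed at 0 in all WT mice. Adipocyte markers summed to 54.0 to 128 FPKM against 10.05 to 20.1 FPKM, with 3 of the 4 tested called higher. The 10 epithelial markers, which define the tissue and were abundant in every library, summed to 5813 to 6946 FPKM in Gm31629-/- mice and 10105 to 10899 FPKM in WT mice, with 4 of 10 called lower. The part of these differences in the results on proteases and inhibitors was not tested. In bulk tissue, more cells of a type and more RNA per cell cannot be told apart.

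The 4 inhibitor genes were all higher in every Gm31629-/- mouse than in any WT mouse, as were 31.0% of all listed genes. Timp1 (ENSMUSG00000001131, chromosome X, 20870166 to 20874735 of GRCm38), the inducible inhibitor of the family, had 20.7, 45.8 and 21.6 FPKM in Gm31629-/- mice 1 to 3 and 1.03, 2.44 and 0.479 FPKM in WT mice. Its log2 fold change was 3.71 (standard error 0.40, limma adjusted p = 0.00076), with means 22.3-fold apart. Timp2 (chromosome 11, 118301069 to 118355740), which blocks MMP2 but also takes part in its activation by MMP14 at the cell surface, was the most abundant inhibitor in each mouse. It had 47.4, 65.9 and 46.1 FPKM against 2.12, 4.72 and 3.91 FPKM, a log2 fold change of 3.59 ± 0.26 (SE, limma adjusted p = 0.000242). Its levels in the 3 Gm31629-/- mice were close together, and all were far above the highest WT value.

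Timp3, the matrix-bound inhibitor that also acts on ADAM17 and ADAMTS enzymes, had 8.38, 32.1 and 12.8 FPKM in Gm31629-/- mice and 0.531, 0.873 and 0.470 FPKM in WT mice (log2 fold change 3.33 ± 0.43 SE, limma adjusted p = 0.00146). Its exons share 21.3% of their length with the host gene Syn3, and whether counting used strand is not given in the sources used here. Timp4 stayed under the filter with 51, 29 and 30 fragments in Gm31629-/- mice and 2, 4 and 5 in WT mice, so it was not tested, and its means were 10.02-fold apart. The calls of Timp1, Timp2 and Timp3 held in 6 of 6 fits that left out a mouse.

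The gelatinases, which cut denatured collagen and basement membrane collagen, rose. Mmp2 (ENSMUSG00000031740, chromosome 8, 92827291 to 92853420), known from fibroblasts, had 15.9, 96.5 and 79.8 FPKM in Gm31629-/- mice 1 to 3 and 3.51, 6.15 and 4.15 FPKM in WT mice. The groups did not overlap, and the means were 13.9-fold apart (log2 fold change 3.22 ± 0.63 SE, limma adjusted p = 0.00665). Mmp9, known from neutrophils and macrophages, was less abundant, at 3.19, 16.3 and 6.34 FPKM against 1.71, 2.32 and 1.35 FPKM. It rose by a log2 fold change of 1.55 ± 0.48 (SE, limma adjusted p = 0.0347), but it was called in only 2 of the 6 fits that left out a mouse. The fits without Gm31629-/- mouse 3 and without WT mouse 1, 2 or 3 gave limma adjusted p of 0.0775, 0.0913, 0.0647 and 0.114.

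Of the stromelysins, which cut proteoglycans and can activate other proMMPs, Mmp3 rose from a low level. It had 14.3, 182 and 114 FPKM in Gm31629-/- mice 1 to 3 and 3.75, 7.77 and 2.78 FPKM in WT mice (log2 fold change 3.67 ± 0.87 SE, limma adjusted p = 0.014). The groups did not overlap, although Gm31629-/- mouse 1 lay much closer to the WT mice than to the other two. The call was lost without Gm31629-/- mouse 3 (limma adjusted p = 0.0529) or WT mouse 3 (0.0586). Mmp10 differed from it in that the groups overlapped. Its level was 3.38 FPKM in Gm31629-/- mouse 1, below all WT mice with 11.7, 29.7 and 14.7 FPKM, and 219 and 136 FPKM in mice 2 and 3, the highest levels of any Mmp gene in these 2 libraries. It was not called (log2 fold change 1.47 ± 1.36 SE, limma adjusted p = 0.408), and without mouse 1 it was (log2 fold change 3.24, limma adjusted p = 0.00178). Mmp11, a stromal member that is activated inside the cell, had an even rise with 3.56, 2.83 and 2.39 FPKM against 0.136, 0.240 and 0.249 FPKM (log2 fold change 1.69, limma adjusted p = 0.000597).

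The collagenases, which cut intact fibrillar collagen, went different ways within the Gm31629-/- group. Mmp13 had 2.83, 109.6 and 53.7 FPKM in Gm31629-/- mice 1 to 3 and 7.24, 13.6 and 3.62 FPKM in WT mice, so that mouse 1 was again below the lowest WT mouse. It was not called (log2 fold change 1.79 ± 1.16 SE, limma adjusted p = 0.245), and without mouse 1 it was (log2 fold change 3.24, limma adjusted p = 0.00439). Mmp8, the collagenase of neutrophil granules, was highest in mouse 1, with 6.07, 2.86 and 2.38 FPKM against 0.0223, 0.0916 and 0.0439 FPKM. The WT values stood for 1, 4 and 2 fragments. It rose by 2.103 on the log2 scale (SE 0.28, limma adjusted p = 0.00164), and the neutrophil markers summed to 507 FPKM in mouse 1 and to 736 and 1029 FPKM in mice 2 and 3. Mmp1b was at 7 fragments in Gm31629-/- mouse 2 and at 0 in the other 5 libraries. The elastase gene Mmp12, known from macrophages, had 0.143, 2.59 and 1.78 FPKM against 0.232, 0.353 and 0.176 FPKM and was called only without mouse 1 (limma adjusted p = 0.124 with it and 0.00221 without it). Macrophage markers summed to 341, 666 and 326 FPKM in Gm31629-/- mice 1 to 3.

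Among the membrane-type enzymes, Mmp14, which activates proMMP2 and cuts collagen at the cell surface, had 22.3, 75.6 and 45.8 FPKM in Gm31629-/- mice and 11.7, 12.9 and 13.9 FPKM in WT mice (log2 fold change 1.66 ± 0.39 SE, limma adjusted p = 0.0137). Mmp17, which is tethered by a lipid anchor, rose by a log2 fold change of 1.56 (limma adjusted p = 0.00215), with 2.04, 3.29 and 1.44 FPKM against 0.0408, 0.143 and 0.0482 FPKM. Mmp15, known from epithelia, had 104, 80.6 and 114 FPKM against 48.7, 103 and 65.8 FPKM. The groups overlapped and it was not called (log2 fold change 0.50 ± 0.28 SE, limma adjusted p = 0.187). Mmp14 thus lay below Mmp15 in each of the 6 mice.

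Of the remaining Mmp genes, Mmp19 had 2.01, 13.1 and 7.03 FPKM in Gm31629-/- mice against 0.168, 0.534 and 0.512 FPKM (log2 fold change 2.32, limma adjusted p = 0.0107), with 28.3% of its exon length shared with other genes. Mmp23 had 3.92, 6.32 and 3.68 FPKM against 0.185, 0.451 and 0.455 FPKM (log2 fold change 2.02, limma adjusted p = 0.000779). Mmp7 and Mmp28, both known from epithelia, lay on the other side. Mmp7, or matrilysin, a small secreted enzyme of glandular epithelium, had 0.0509, 0.203 and 0.0510 FPKM in Gm31629-/- mice, which stood for 1, 4 and 1 fragments, and 3.59, 2.44 and 3.79 FPKM in WT mice. It fell by 1.94 on the log2 scale (SE 0.18, limma adjusted p = 0.000501). Mmp28, or epilysin, had 2.02, 8.29 and 4.07 FPKM against 8.67, 9.42 and 9.24 FPKM. Its groups did not overlap, but it was not called (log2 fold change -0.95 ± 0.37 SE, limma adjusted p = 0.0758) unless libraries were rescaled by the median ratio (0.0349) or Gm31629-/- mouse 2 was left out (0.00795). Both genes share exon sequence with other annotated genes, over 11.5% and 12.03% of their length. In all, 9 of the 15 Mmp genes tested were called higher and 1 lower, against 18.4% and 4.64% of all genes. Since 6 of the 15 had passed the filter only through Gm31629-/- mice and Mmp7 only through WT mice, these counts are no rate for the family. Of the 9 with a WT mean of at least 0.5 FPKM, 4 were called higher, against 11.4% of all genes tested with such a WT mean.

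**Figure D2:**
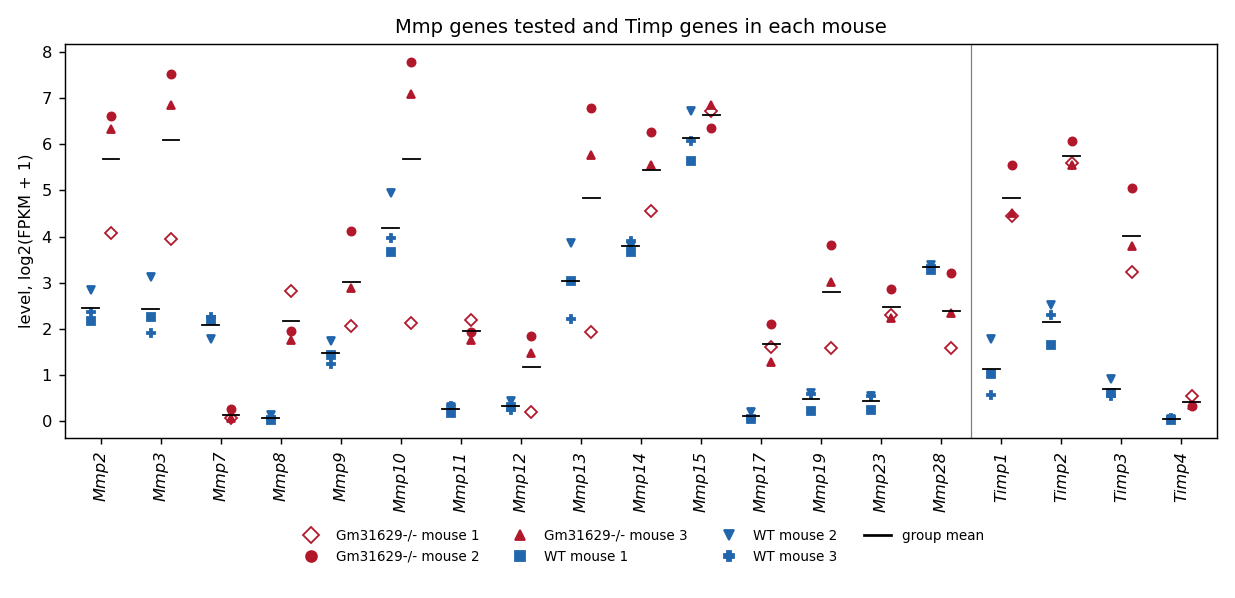
Level of the 15 Mmp genes tested and the 4 Timp genes (y axis, log2(FPKM + 1)) in each mouse, with WT mice in blue, Gm31629-/- mice in red and group means as black bars. Gm31629-/- mouse 1 (open diamonds) lies below all WT mice for Mmp10, Mmp12 and Mmp13 but with mice 2 and 3 for Mmp11, Mmp17, Mmp23, Timp1 and Timp2, and Mmp7 is near 0 in the 3 Gm31629-/- mice but not in the WT mice.

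The Mmp genes with the widest spread among Gm31629-/- mice lie in one cluster, which holds 9 Mmp genes and spans 427 kb of chromosome 9 (7272514 to 7699585 of GRCm38), in the order Mmp13, Mmp12, Mmp1b, Mmp3, Mmp10, Mmp8, Mmp27, Mmp20 and Mmp7. Of these, 6 were tested, Mmp3 and Mmp8 were called higher and Mmp7 was called lower, so the called genes of the cluster did not share a direction. Promoters (250 bases before to 50 bases after a gene's start, RefSeq, GRCm38.p6) were found for 44 of the 72 members. They were searched for the motif TGANTCA, which AP-1 (the FOS and JUN factors, known to switch on stromelysin and collagenase genes in inflammation) can bind and which reads alike on both strands. It was present in 7 of the 9 cluster genes and in 8 of the 44 members, against 8.97% of all 27025 genes in the promoter table. Mmp7 and Mmp12 held it in 1 of their 2 annotated promoters. The exceptions within the cluster were Mmp8 and Mmp27, and outside it Adam19 held the motif in 1 of its promoters. Of the 17 members called higher that had a promoter, 2 held it (11.8%). A match in these letters, where N is any base, is no proof of binding. The match of Mmp20 read TGAATCA, whereas all the others had G or C as N. The stretches from 130 bases before to 20 bases after the start of the 3 cluster genes that were highest in Gm31629-/- mice 2 and 3, and of Mmp7, which fell, show the motif in capitals, all on the forward strand (chr9:7272384-7272533 for Mmp13, chr9:7445692-7445841 for Mmp3, chr9:7502212-7502361 for Mmp10 and chr9:7691960-7692109 for Mmp7):
Mmp13: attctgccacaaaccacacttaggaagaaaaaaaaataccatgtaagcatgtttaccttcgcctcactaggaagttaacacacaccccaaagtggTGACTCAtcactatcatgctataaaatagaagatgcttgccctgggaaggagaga
Mmp3: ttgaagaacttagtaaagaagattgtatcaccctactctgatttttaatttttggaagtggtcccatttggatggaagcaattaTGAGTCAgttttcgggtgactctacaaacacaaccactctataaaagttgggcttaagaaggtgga
Mmp10: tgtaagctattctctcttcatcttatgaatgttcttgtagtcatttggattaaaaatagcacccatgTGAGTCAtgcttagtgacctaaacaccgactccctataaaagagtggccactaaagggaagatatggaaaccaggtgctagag
Mmp7: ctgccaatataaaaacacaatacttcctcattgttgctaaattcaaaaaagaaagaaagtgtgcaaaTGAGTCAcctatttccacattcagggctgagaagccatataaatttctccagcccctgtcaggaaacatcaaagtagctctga
The motif began 35 bases before the start of Mmp13, 46 bases before that of Mmp3 and 63 bases before those of Mmp10 and Mmp7. The part of the motif in the levels of these genes was not tested.

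**Figure D3:**
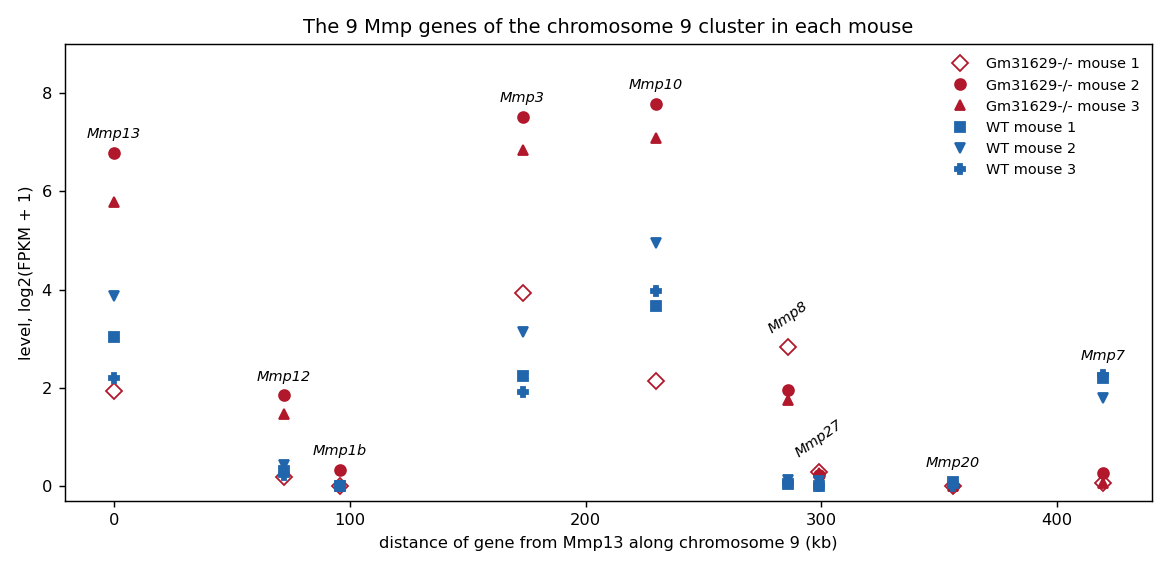
Level (y axis, log2(FPKM + 1)) of the 9 clustered Mmp genes against distance from Mmp13 along chromosome 9 in kb, in each mouse (WT blue, Gm31629-/- red). For Mmp13, Mmp3 and Mmp10, Gm31629-/- mice 2 and 3 are above all other mice and mouse 1 (open diamond) is below the WT mice for Mmp13 and Mmp10 and above them for Mmp3, whereas Mmp8 is highest in mouse 1 and Mmp7 is high in the WT mice.

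The spread within the Gm31629-/- group was itself uneven between members. Mouse 1 had the lowest level of the 3 for 26 of the 40 members tested, against 31.9% of all genes tested, and mouse 2 the highest for 34 of the 40, against 44.0% of all genes. Since 18 of the 40 had passed the filter only through their level in Gm31629-/- mice, these counts are no rate for the members. The mean of mice 2 and 3 was 52.5 times the level of mouse 1 for Mmp10, 28.9 times for Mmp13, 15.3 times for Mmp12, 10.4 times for Mmp3 and 5.55 times for Mmp2. It was 1.62 times for Timp1, 1.18 times for Timp2 and 0.980 times for Adam33, and 0.431 times for Mmp8. The fibroblast markers summed to 210.2 FPKM in mouse 1 and to 613 and 390.1 FPKM in mice 2 and 3, and smooth muscle markers to 1679 FPKM in mouse 1 and 1246 and 1105 FPKM in mice 2 and 3. The part of cell makeup or of the Y-linked transcripts of mouse 1 in this spread was not tested.

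The Adamts genes were nearly silent in WT mice, with a sum of 3.53 to 4.38 FPKM over the 19 genes, and 9 of the 10 tested were called higher, against 18.4% of all genes. Since 7 of the 10 had passed the filter only through Gm31629-/- mice, this count is no rate for the family. Of the 3 with a WT mean of at least 0.5 FPKM, 2 were called, against 11.4% of all genes tested with such a WT mean. Of the genes whose products cut proteoglycans, Adamts1 (ENSMUSG00000022893, chromosome 16, 85793827 to 85803113) had 12.7, 34.6 and 10.8 FPKM in Gm31629-/- mice 1 to 3 and 0.102, 0.220 and 0.151 FPKM in WT mice. The groups were far apart, with means that differed 123-fold and a log2 fold change of 3.95 ± 0.40 (SE, limma adjusted p = 0.000599). Adamts4, which encodes an inducible aggrecanase, had 3.67, 30.2 and 21.9 FPKM against 0.247, 0.543 and 0.741 FPKM (log2 fold change 3.32 ± 0.66 SE, limma adjusted p = 0.00698), with mouse 1 lower than mice 2 and 3 as for Mmp3. Adamts5, which lies next to Adamts1 and encodes the other main aggrecanase, had 1.61, 1.45 and 0.666 FPKM against 0, 5 and 1 fragments in WT mice (log2 fold change 1.12, limma adjusted p = 0.0049), and its log2 fold change was 1.00, just under the limit, without Gm31629-/- mouse 1. Adamts8 and Adamts9 rose by log2 fold changes of 1.35 and 1.42 (limma adjusted p = 0.00268 and 0.00619), with 10.6% and 11.99% of their exon length shared with other genes. Adamts15, which was chosen here after its values were seen, was the exception in this class on the log2(FPKM + 1) scale, with means of 0.992 ± 0.170 FPKM in WT and 2.25 ± 0.394 FPKM in Gm31629-/- libraries (SD, n = 3 each) and a log2 fold change of 0.70 (limma adjusted p = 0.0137), under the limit. With limma's voom on recovered fragments its log2 fold change was 1.18 (limma voom adjusted p = 0.0062), past the limit. With voom or a pseudocount of 0.1, 10 Adamts genes were called higher.

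The procollagen N-proteinases trim the amino end of fibrillar procollagens before fibrils form. Adamts2 had 2.58, 5.27 and 2.69 FPKM in Gm31629-/- mice and 0.104, 0.113 and 0.0912 FPKM in WT mice (log2 fold change 1.98 ± 0.24 SE, limma adjusted p = 0.00113), and Adamts14, also taken up after its values were seen, was called with a log2 fold change of 1.05 in the fit of all mice and in 3 of the 6 fits that left out a mouse. Adamts3 stayed under the filter. Adamts7, which cuts the cartilage oligomeric matrix protein, had 0.874, 6.19 and 4.38 FPKM against 0.198, 0.513 and 0.271 FPKM and rose by a log2 fold change of 1.66 ± 0.47 (SE, limma adjusted p = 0.0256). That call held only in the fit without Gm31629-/- mouse 1, and the other 5 fits gave limma adjusted p of 0.0563 to 0.0841. Adamts10, which associates with fibrillin microfibrils, was even among mice, at 4.25, 5.92 and 4.68 FPKM against 0.416, 0.764 and 0.595 FPKM (log2 fold change 1.90 ± 0.18 SE, limma adjusted p = 0.000501).

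Of the ADAMTS-like genes, whose products have no protease domain and bind microfibrils, 3 of 5 were tested. Adamtsl2 had 1.18, 2.18 and 1.76 FPKM in Gm31629-/- mice and 0.0338, 0.153 and 0.0799 FPKM in WT mice (log2 fold change 1.30, limma adjusted p = 0.00197). Adamtsl4 had 5.24, 18.9 and 12.1 FPKM against 1.78, 3.41 and 2.74 FPKM (log2 fold change 1.72 ± 0.41 SE, limma adjusted p = 0.0149), and the call was lost without Gm31629-/- mouse 3, WT mouse 1 or WT mouse 3 (0.0511, 0.0556 and 0.0516). Adamtsl5 overlapped between the groups, with 4.35, 2.65 and 5.51 FPKM against 1.71, 3.66 and 4.0 FPKM (log2 fold change 0.34 ± 0.31 SE, limma adjusted p = 0.404).

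The Adam family was the least altered of the 5 by its sum, which was carried in WT mice by broadly expressed sheddases. Adam9, Adam10, Adam15 and Adam17 together made up 94.3% to 95.7% of the Adam sum in WT mice and 74.9% to 79.9% in Gm31629-/- mice. Adam10, the constitutive sheddase that also cuts Notch receptors, was the most abundant in each WT mouse, with 22.3, 21.7 and 14.3 FPKM against 26.6, 28.4 and 19.6 FPKM in Gm31629-/- mice. The groups overlapped (log2 fold change 0.35 ± 0.22 SE, limma adjusted p = 0.236). Adam9 had 24.1, 33.9 and 20.8 FPKM in Gm31629-/- mice and 15.8, 16.4 and 12.4 FPKM in WT mice (log2 fold change 0.76, limma adjusted p = 0.0238), and Adam15, with 20.6% of its exon length shared with another gene, had 11.5, 14.3 and 20.01 FPKM against 9.21, 6.61 and 7.89 FPKM, a log2 fold change of 0.85 (limma adjusted p = 0.0207). Adam17, the TNF-alpha convertase and a gene outside the naming rule, had a log2 fold change of 0.68 (limma adjusted p = 0.0311). The last 3 had an adjusted p under 0.05, as did 28.9% of all genes in this direction, but did not reach the fold-change limit. Without Gm31629-/- mouse 1, Adam15 passed it (limma adjusted p = 0.0114). After rescaling by the median ratio, the limma adjusted p was 0.0826 for Adam15 and 0.0663 for Adam9. It was also above 0.05 for Adam15 without WT mouse 2 or 3 (0.0699 and 0.0698) and for Adam9 without WT mouse 1 or 3 (0.0576 and 0.0944). In the other fits that left out a mouse, both stayed under 0.05.

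Of the 9 Adam genes tested, 5 were called higher, against 18.4% of all genes, and these were scarce in WT mice. Since 4 of the 9 had passed the filter only through Gm31629-/- mice, this count is no rate for the family. Of the 5 with a WT mean of at least 0.5 FPKM, 1 was called, against 11.4% of all genes tested with such a WT mean. Adam33, known from smooth muscle and fibroblasts, had 4.10, 4.29 and 3.74 FPKM in Gm31629-/- mice and 1, 0 and 6 fragments in WT mice. It rose by a log2 fold change of 2.30 ± 0.14 (SE, limma adjusted p = 0.000184). Adam19, which is widespread in mesenchyme, had 3.70, 6.43 and 4.01 FPKM against 0.425, 0.570 and 0.359 FPKM (log2 fold change 1.95, limma adjusted p = 0.000799). Adam8, known from leukocytes, had 2.52, 9.80 and 3.70 FPKM against 1.12, 0.635 and 0.987 FPKM (log2 fold change 1.57, limma adjusted p = 0.0177), and was not called without WT mouse 2 or WT mouse 3 (0.0588 and 0.0586). Adam11 and Adam23 encode catalytically inactive proteins of neurons that bind LGI proteins. Adam11 had 3.36, 3.70 and 2.01 FPKM against 0.0954, 0.0588 and 0.0657 FPKM (log2 fold change 1.88, limma adjusted p = 0.00076), and Adam23 1.04, 1.85 and 1.53 FPKM against 0.0181, 0.0744 and 0.0119 FPKM (log2 fold change 1.24, limma adjusted p = 0.00179). Their relative Adam22, chosen after its values were seen, stayed just under the filter with 305, 315 and 81 fragments in Gm31629-/- mice and 17, 22 and 12 in WT mice. The enteric neuron and glia markers, which summed to 111, 154 and 45.2 FPKM in Gm31629-/- mice 1 to 3, were lowest in mouse 3, as were Adam11 and Adam22, whereas Adam23 was lowest in mouse 1.

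**Figure D4:**
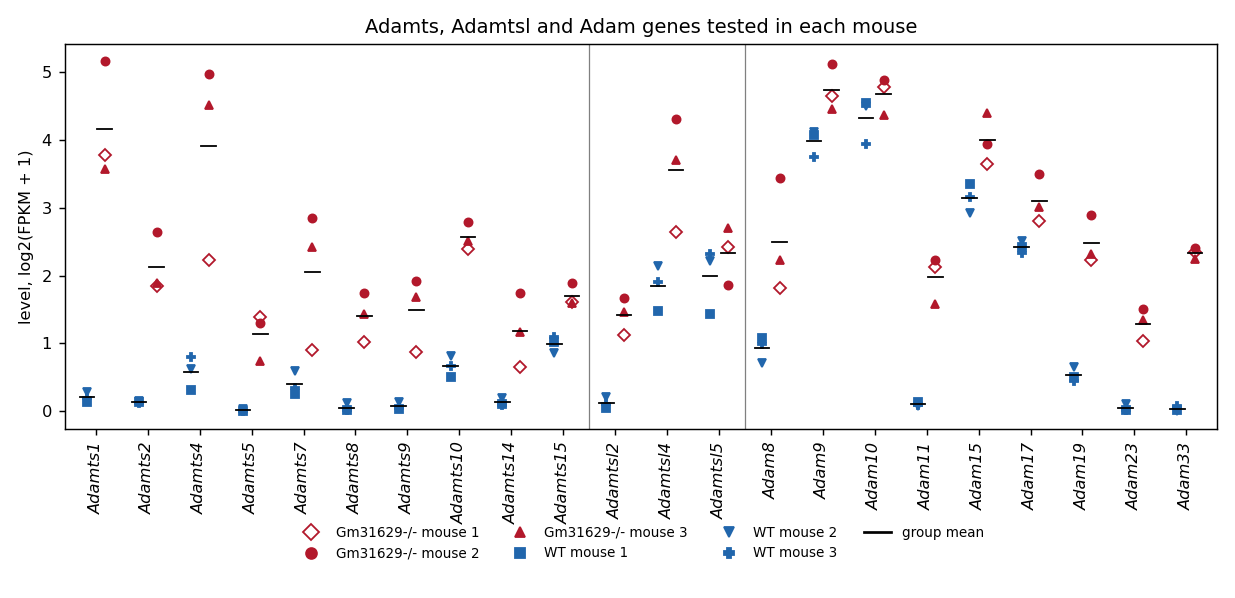
Level (y axis, log2(FPKM + 1)) of the 10 Adamts, 3 Adamtsl and 9 Adam genes tested, in each mouse (WT blue, Gm31629-/- red, black bars for group means). Most Adamts genes are near 0 in WT mice, Adam9 and Adam10 are high in every mouse, and Adamts4 and Adamts7 show Gm31629-/- mouse 1 (open diamonds) apart from mice 2 and 3.

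**Figure D5:**
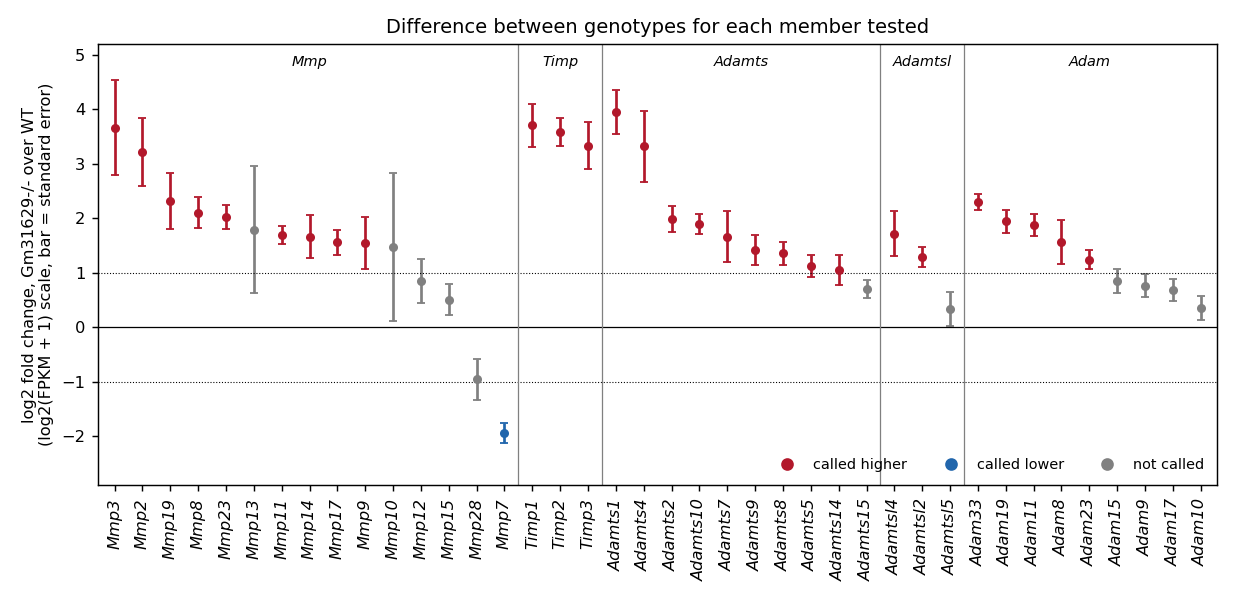
Log2 fold change of Gm31629-/- over WT mice on the log2(FPKM + 1) scale for the 40 members tested, with standard errors, ordered within each family (red called higher, blue called lower, grey not called, dotted lines at 1 and -1). The 3 Timp genes tested lie between 3.33 and 3.71, Mmp10 and Mmp13 have the longest bars, and Mmp7 is the only member called lower.

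The 32 members under the filter were not tested and had means of up to 0.474 FPKM. The groups did not overlap for 21 of them, 17 higher and 4 lower in Gm31629-/- mice, against 31.0% and 12.6% of all listed genes. The number lower was thus near the share of all genes. These shares also cover genes above the filter, and no share was taken over the genes under it alone. The 4 lower members, named here after their values were seen, were Adamts16, Adamts17, Adamts18 and Adam18. Adamts17 had 105, 88 and 64 fragments in the WT libraries against 20, 6 and 0, and Adamts18 had 37, 28 and 50 against 3, 2 and 2. Adamts16 had 14, 5 and 11 fragments against 0, 3 and 0, and Adam18 4, 5 and 6 against 0, 1 and 0. In the other direction, Adamts19 and Adamts20 were at 0 in all WT mice and at 33 to 63 and 13 to 18 fragments in Gm31629-/- mice. Several Adam genes known from testis, such as Adam2, Adam7 and Adam30, held 3 fragments or fewer in each library. Adam1a, whose exons are shared with other genes over 63.7% of their length, overlapped between the groups.

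Other genes that control these enzymes were taken from a separate list of 25 activators, inhibitors and maturation factors. Of these, 19 were tested, 7 were called higher and 1 lower, against 18.4% and 4.64% of all genes. Reck, Spock2 and Pcsk6 reached the filter only through Gm31629-/- mice, with WT means of 0.061, 0.186 and 0.499 FPKM. These counts are therefore no rate for the list. Among activators, Plat, tissue plasminogen activator, had 6.64, 62.1 and 17.8 FPKM in Gm31629-/- mice and 0.502, 1.66 and 0.980 FPKM in WT mice (log2 fold change 3.39 ± 0.69 SE, limma adjusted p = 0.00799). Plau, the urokinase gene, which is outside the naming rule, had 5.21, 53.5 and 24.7 FPKM against 4.75, 5.75 and 4.02 FPKM. It was not called (limma adjusted p = 0.0713) except without Gm31629-/- mouse 1 (0.00168). The proprotein convertases, which remove the propeptide of membrane-type MMPs, ADAM and ADAMTS enzymes, moved apart. Pcsk6 rose by a log2 fold change of 1.47 (limma adjusted p = 0.0112), and Pcsk5 fell by 1.72 on the log2 scale (limma adjusted p = 0.0123), with 5.68, 1.55 and 1.33 FPKM against 8.64, 11.5 and 10.9 FPKM, a call lost without WT mouse 3 (0.0507). Furin overlapped between the groups.

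Of the other inhibitors, Reck, a membrane-anchored inhibitor of several MMPs, had 3.33, 3.80 and 2.02 FPKM against 0.0566, 0.0930 and 0.0334 FPKM (log2 fold change 1.91 ± 0.21 SE, limma adjusted p = 0.00076). Serpine2, or protease nexin-1, and Spock2, or testican-2, rose by log2 fold changes of 1.83 and 2.68 (limma adjusted p = 0.00816 and 0.00362). Of the genes for maturation of ADAM10 and ADAM17, 8 of 9 were tested and Tspan5 alone was called, with a log2 fold change of 1.17 (limma adjusted p = 0.00777), which was 0.95 and under the limit without Gm31629-/- mouse 2. The iRhom genes Rhbdf1 and Rhbdf2 had log2 fold changes of 0.05 and 0.23 and were not called.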

How the data were processed

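RNA-Seq libraries (Illumina TruSeq) of colon from 3 Gm31629-/- and 3 WT mice were compared. The authors deposited FPKM values, 1 column per mouse; their processing notes name HISAT2 2.1.0, HTSeq 0.6.0 and GRCm38, and the annotation is not given in the sources used here. Symbols, locations and exon lengths came from GENCODE M21 (GRCm38), which matched 27488 of 27546 identifiers. Fragments were recovered from exon length and the size of 1 fragment, and 96.3% to 97.2% of the small values (20 fragments or fewer) in a library lay within 0.1 of a whole number. The study's DEGseq test needs counts, so the limma package (version 3.58.1, R 4.3.3) was used, with lmFit and a trended eBayes step, on log2(FPKM + 1) for 14657 genes with a mean of at least 0.5 FPKM. No 2 mice of a group were as close as sampling of fragments would make 1 library (chi-square per gene 34.1 to 169). The code was tested on simulated data.

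The members, gene lists and tests were chosen with earlier results of these data known. Named were every Timp gene, every Mmp gene tested, the called members with the largest changes (up to 8) and the 3 most abundant members of each other family, and every called regulator except 1 that is not reported here. Other members were named after their values were seen. Protein sequences were not analysed here. Alternatives were the replicate number as a block, no fold-change limit, equal library sums, the median ratio, an untrended eBayes step, a smaller pseudocount (0.1), a stricter filter (5 FPKM) or none, each mouse left out, and, chosen after seeing the data, limma's voom on the recovered fragments. Figures were drawn with matplotlib 3.10.9.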

Additional observations from a re-analysis of the deposited data

How the results depend on the processing

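A filter at a mean of 5 FPKM, which tests fewer genes (7242), left 10 members called higher (4 Mmp, 3 Timp, 2 Adamts, 1 Adamtsl and 0 Adam). It left 0 called lower among all members and in the Mmp family, and 1 regulator called higher. Rescaling by the median ratio gave 2 members called lower, both Mmp genes. Without the fold-change limit, 8 Adam genes counted as higher, against 28.9% of all genes. With a mouse left out, members called higher numbered 22 to 31 (Mmp 7 to 12, Timp 3, Adamts 7 to 8, Adamtsl 1 to 2, Adam 4 to 6), members called lower 1 to 2, all in the Mmp family, and regulators 5 to 8 higher and 0 to 1 lower. For 45 named genes, 569 of 605 alternative values kept direction and call, 30 lost the call, 6 gained it and 0 changed direction. With limma's voom on recovered fragments, 29 members were called higher and 1 lower. Mice of the 2 genotypes that share a number did not deviate together (correlation over genes of 0.036, -0.11 and 0.014), and with the replicate number as a block the counts stayed at 28 and 1. Among these alternatives, shares of all genes were taken only for the median ratio, no fold-change limit and the fit without Gm31629-/- mouse 1. The other counts here cannot be set against all genes. The log2(FPKM + 1) scale and the depth of these libraries limit what can be said of the 32 members under the filter.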
